A study of Rattus norvegicus with 9 samples.

Results

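The 10 genes described here encode matricellular proteins: 4 thrombospondins (Thbs1, Thbs2, Thbs3 and Thbs4), the related cartilage oligomeric matrix protein (Comp), tenascin C (Tnc), periostin (Postn), osteonectin (Sparc), osteopontin (Spp1) and cartilage intermediate layer protein (Cilp). They were chosen by name as a protein class, with earlier results of these data known. All 10 were found among the 17337 genes of the count table. Their transcripts were measured by RNA sequencing in cardiac fibroblast cultures from Sprague Dawley rats. The fetal hearts were taken at embryonic day 18, the neonatal ones at postnatal day 1, and those of adult rats at 7 weeks. Each of these 3 ages had 3 libraries, 9 in all, and no genotype, drug or sorting step distinguished them in the labels. All cultures were at passage 0 and were grown until confluent in DMEM with antibiotics, 10% fetal bovine serum and 0.1 mM ascorbic acid. The values therefore describe cells that had grown on plastic in serum, not cells taken directly from the heart. The labels do not say whether libraries of 1 age came from separate animals or separate cultures, so p-values measure the spread between these libraries, which may be technical.

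Matricellular proteins are secreted into the extracellular matrix but act mainly as signals and adaptors there, binding cell-surface receptors, growth factors, proteases and collagen. Most are prominent in developing tissue, decline in the resting adult organ and return in wounds; in the heart, periostin, tenascin C, osteopontin and the thrombospondins are known as products of activated fibroblasts or of inflammatory cells after injury. Thrombospondins fall into a trimeric subgroup (Thbs1 and Thbs2), which inhibits angiogenesis and binds CD47 and CD36, and a pentameric subgroup (Thbs3, Thbs4 and Comp).

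The libraries held 13392825 to 22850491 assigned counts, with the 3 adult libraries the shallowest. Levels are given as counts per 1000000 (CPM), scaled between libraries by the TMM method, and as mean ± SD over n = 3 libraries. Differences are log2 fold changes from edgeR's quasi-likelihood test over all 11337 genes that passed its filter on low counts, and an adjusted p below 0.05 counted as a change. The spread of each gene was estimated jointly from all 9 libraries. A library of the third age can therefore change a call between 2 ages. The fetal libraries were not alike: fetal replicate 3 had the lowest or highest fetal level for 10 of 10 members, and the chi-square statistic per degree of freedom against fetal replicates 1 and 2 was 90 and 97.3, against 3.94 between those. Among adult libraries, replicate 1 stood apart (25.8 and 43, against 6.76 between replicates 2 and 3). The neonatal libraries differed least, at 2.05 to 2.76. Of 8 fibroblast markers, 7 were at 1 CPM or more in every library, and the exception was the table's entry for Col1a2, at 1 to 21 counts. The summed level of 12 macrophage markers was 15 to 70.8 CPM in fetal, 166 to 183 in neonatal and 4180 to 5843 in adult libraries. The summed level of 12 cardiomyocyte markers ran the other way. It was 9731 to 13699 CPM in fetal libraries, 6300 to 6991 in neonatal ones and 305 to 321 in adult ones, where Tnnt2 alone gave 303 to 316 CPM. In cultures of mixed cells, fewer cells of a type and less RNA per cell cannot be told apart.

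The class did not move as a block. Sparc, Thbs1, Postn and Thbs3 had their highest mean in neonatal cultures, Tnc and Thbs4 in fetal cultures, and Spp1, Thbs2, Cilp and Comp in adult cultures. All 10 genes passed the filter on low counts. Between fetal and neonatal cultures 2 members rose (Sparc and Cilp), 3 fell (Tnc, Thbs4 and Comp) and 5 were not called, 5 of 10 against 36.3% of all genes tested (18.3% higher, 18% lower). Without any 1 of the neonatal libraries the count was 3. From neonatal to adult cultures 4 rose and 5 fell, 9 of 10 against 63.5% of all genes (31.6% higher, 31.8% lower). Across the whole span from fetal to adult, 4 rose and 3 fell, 7 of 10 against 70.5% of all genes (34.9% higher, 35.5% lower), so that share was near the background. Libraries of the compared ages did not overlap for 9, 10 and 6 of the 10 members in these comparisons, against 57.4%, 76.1% and 71.8% of all genes tested. The median absolute log2 fold change of the members was 0.834, 1.6 and 2.53, beside 0.294, 0.521 and 0.628 over all genes tested. Because the members were chosen with earlier results of these data known, their differences from all genes are descriptions only.

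**Figure D1:**
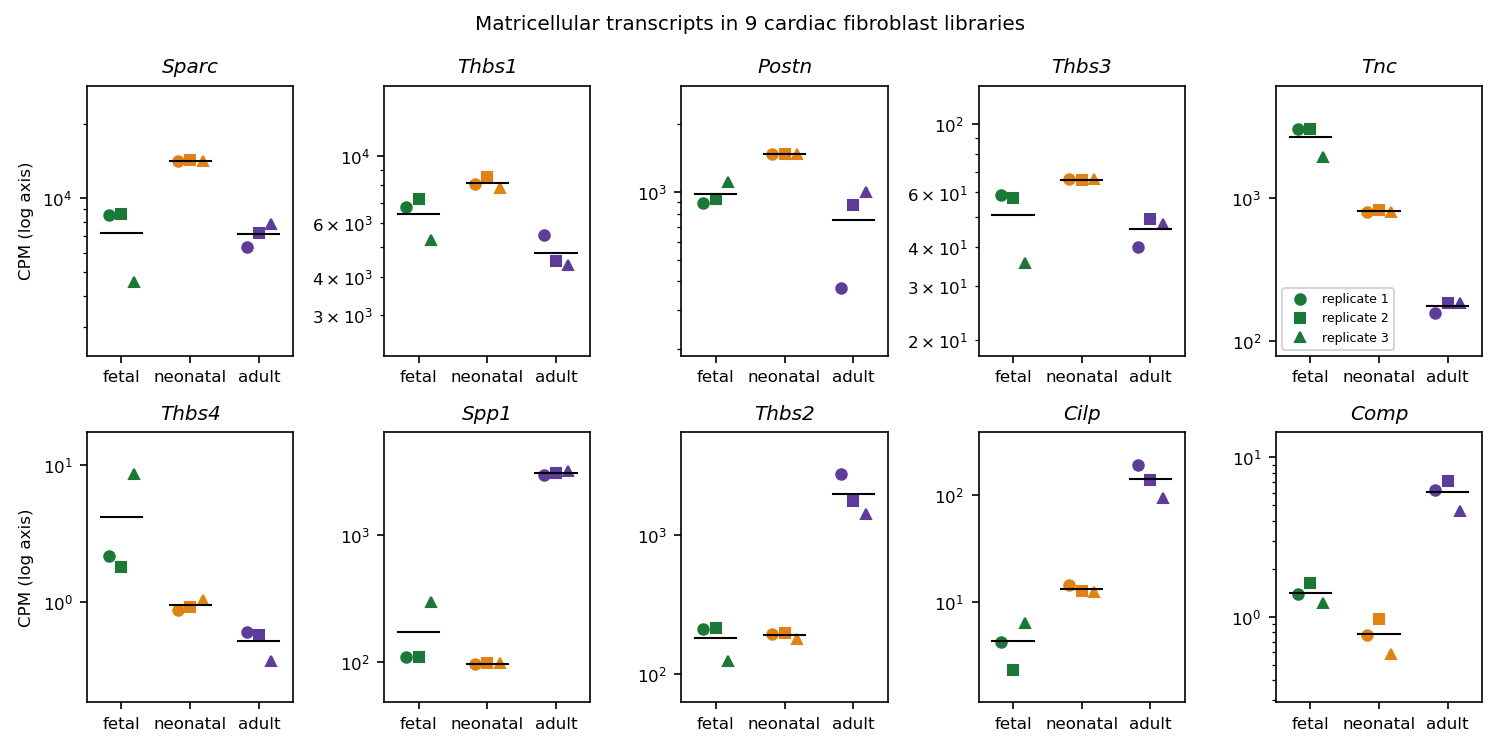
Level of each of the 10 matricellular transcripts in each of the 9 libraries, in CPM on a log axis, by age. Circles, squares and triangles are replicates 1, 2 and 3 and the black line is the mean of 3. Sparc reaches 14190 CPM in neonatal cultures, Tnc falls at each age from 2644 to 174 CPM, and Spp1 rises to 3074 CPM in adult cultures.

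RefSeq promoter windows on assembly GRCr8, cut here to the 250 bases before the annotated start, matched 9 of the 10 members (all but Thbs2). The windows of the 4 members that best stand for the different courses are printed 5′ to 3′ on the gene's strand: Tnc for the stepwise fall, Spp1 for the adult rise, and Sparc and Postn for the neonatal high. Their positions are Tnc, chr5:82476132-82476381, minus strand; Spp1, chr14:5619805-5620054, minus strand; Sparc, chr10:40038817-40039066, minus strand; and Postn, chr2:140677811-140678060, plus strand. Capitals mark hits of 4 motifs searched on both strands: the TATA box as TATAAA, the AP-1 motif as TGANTCA, the TEAD motif as CATTCC and the Smad motif as CAGACA. A hit on the opposite strand shows as the reverse complement, which for the TEAD motif reads GGAATG and for the Smad motif reads TGTCTG.
Tnc: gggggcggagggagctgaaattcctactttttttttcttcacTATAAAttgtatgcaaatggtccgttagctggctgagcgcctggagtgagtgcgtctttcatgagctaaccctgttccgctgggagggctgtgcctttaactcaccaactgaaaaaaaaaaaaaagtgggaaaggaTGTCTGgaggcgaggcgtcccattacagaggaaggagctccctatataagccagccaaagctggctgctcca
Spp1: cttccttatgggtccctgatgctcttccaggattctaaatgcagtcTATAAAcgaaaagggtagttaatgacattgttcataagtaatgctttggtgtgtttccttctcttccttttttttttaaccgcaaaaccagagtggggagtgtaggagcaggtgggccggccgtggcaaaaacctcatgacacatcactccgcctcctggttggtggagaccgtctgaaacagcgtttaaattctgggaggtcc
Sparc: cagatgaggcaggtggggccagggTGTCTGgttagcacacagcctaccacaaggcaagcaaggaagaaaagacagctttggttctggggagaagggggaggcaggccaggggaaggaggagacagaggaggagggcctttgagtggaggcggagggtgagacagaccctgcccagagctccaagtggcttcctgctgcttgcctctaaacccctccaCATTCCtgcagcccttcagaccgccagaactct
Postn: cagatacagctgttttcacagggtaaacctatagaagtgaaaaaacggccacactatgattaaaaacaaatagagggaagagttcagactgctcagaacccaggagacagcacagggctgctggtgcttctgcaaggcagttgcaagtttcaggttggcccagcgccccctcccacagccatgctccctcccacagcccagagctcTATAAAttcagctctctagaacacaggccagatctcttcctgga
The TATA box letters were present in 3 of the 9 windows (Tnc, Postn and Spp1), against 12.9% of 33469 rat promoter windows of the same length. The string TATAAA began at base 207 of the Postn window, close to the start, and at bases 43 and 47 of the Tnc and Spp1 windows, far upstream. Only this string was searched, so other forms of a TATA box were not counted, such as the letters tatataag close to the end of the Tnc window. The Smad letters were present in 5 of 9 windows (Tnc, Sparc, Thbs4, Comp and Cilp) against 17.2% of all windows, and the TEAD letters in 3 of 9 (Sparc, Thbs1 and Thbs4) against 12.1%. The AP-1 letters were in 0 of 9, against 6.34% of all windows. No motif overlapped another. The motif sets cut across the courses, since the windows with TATAAA include a gene that fell, a gene that rose in adults and a gene that was highest in neonatal cultures.

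Sparc (chromosome 10, 40742390 to 40764141, rn6), a collagen-binding glycoprotein needed for orderly collagen deposition, was the most abundant member by length at every age. It was at 8528, 8654 and 4586 CPM in fetal replicates 1, 2 and 3, at 14192, 14259 and 14117 CPM in the neonatal libraries and at 6342, 7231 and 7862 CPM in the adult libraries. Every neonatal library lay above every fetal and adult one, and fetal replicate 3 was the lowest of the 9. Sparc rose 1.96-fold from fetal to neonatal cultures (log2 0.97, SE 0.218, edgeR adjusted p = 0.00876) and fell from neonatal to adult cultures (log2 -0.99, SE 0.218, edgeR adjusted p = 0.00314). Adult and fetal means were 7145 ± 764 and 7256 ± 2313 CPM, a log2 difference of -0.02 with a 95% interval of -0.51 to 0.46 (edgeR adjusted p = 0.932). Without fetal replicate 3 that difference was -0.27 and was called (edgeR adjusted p = 0.0102). The summed level of 8 fibroblast markers, nearly all of it from the fibrillar collagen genes Col1a1 and Col3a1, was likewise lowest in fetal replicate 3 among fetal libraries (22495 CPM, against 46548 and 49364) and highest in neonatal libraries (66304 to 72560 CPM). Among fetal libraries Dcn, Tcf21, Thy1 and Ddr2 were lowest in replicate 3 too, while Pdgfra was highest there (151 CPM, against 106 and 109). Ddr2 was also highest in neonatal libraries (317 to 347 CPM), and Thy1 overlapped between neonatal and adult ones. Pdgfra, Dcn and Tcf21 ran differently, being higher in every adult than in every neonatal library. The summed level of 7 mural markers, most of it Pdgfrb, was 1689, 1677 and 666 CPM in fetal replicates 1, 2 and 3. It was 3177 to 3281 CPM in neonatal and 1459 to 1670 in adult libraries. Of that list, Abcc9 was highest in fetal replicate 3 among fetal libraries. Neonatal Cspg4 overlapped the fetal level, and neonatal Kcnj8 the adult one. The part of these marker genes in the Sparc result was not tested.

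Postn (chromosome 2, 143656845 to 143688087, rn6) encodes periostin, a fasciclin-domain protein that promotes collagen cross-linking and marks activated cardiac fibroblasts. The fetal libraries were at 891, 927 and 1104 CPM, the neonatal at 1463, 1471 and 1472 CPM and the adult at 374, 873 and 998 CPM. The neonatal libraries were all above the others, and adult replicate 1 was less than any other library. Postn fell from neonatal to adult cultures (log2 -0.97, SE 0.299, edgeR adjusted p = 0.0188). Without adult replicate 1 the log2 difference was -0.652 (edgeR adjusted p = 0.00109). Leaving out fetal replicate 3 ended the call (adjusted p 0.0528), as did a fit of only these ages (0.0767). The neonatal level was 1.51-fold the fetal one, with no overlap, but did not pass the test (log2 0.59, SE 0.297, edgeR adjusted p = 0.147). It passed without adult replicate 1 (log2 0.596, adjusted p 0.00237) and with only these ages in the fit (0.005). Between adult and fetal cultures no change was called (log2 -0.38, 95% interval -1.05 to 0.29, edgeR adjusted p = 0.276), and the difference was -0.0556 without adult replicate 1.

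Tnc (chromosome 5, 79790275 to 79849865, rn6) encodes tenascin C, a large hexameric glycoprotein of embryonic and wounded tissue that loosens cell adhesion. It was at 3008, 3001 and 1924 CPM in the fetal, 795, 820 and 790 CPM in the neonatal and 157, 183 and 183 CPM in the adult libraries. The 3 ages were fully separated, with each fetal library above each neonatal library and each of those above each adult one. Tnc was the member with a called fall at every step: 3.3-fold lower in neonatal than in fetal (log2 -1.72, SE 0.162, edgeR adjusted p = 0.00011), 4.6-fold lower in adult than in neonatal (log2 -2.20, SE 0.166, edgeR adjusted p = 4.45e-06) and 15.2-fold lower in adult than in fetal cultures (log2 -3.92, SE 0.178, edgeR adjusted p = 1.17e-07). All 3 calls held under each of the 16 alternatives run for a member's fold change. Cardiomyocyte markers fell at the same steps, with 10 of 12 called lower from fetal to neonatal and 12 of 12 from neonatal to adult cultures. Among fetal libraries their sum, like Tnc, was lowest in replicate 3 (9731 CPM, against 12670 and 13699). The markers differed there: Nppa (1606 CPM, against 3683 and 3831), Myh6, Tnnt2, Tnni3, Actc1, Myl2 and Pln were lowest. Myl7 (79.5 CPM, against 29.1 and 32.6), Ryr2 and Mybpc3 were highest in that library, and Myh7 and Actn2 lay between. The part of cardiomyocyte markers in the Tnc result was not tested. Among all genes of the table, the Tnc rank by CPM per kilobase of exon was 121 in fetal, 604 in neonatal and 3300 in adult cultures. The ratio of Tnc to Postn per length was 0.9 to 1.74 in fetal, 0.277 to 0.288 in neonatal and 0.0946 to 0.216 in adult libraries.

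Spp1 (chromosome 14, 6673686 to 6679921, rn6) encodes osteopontin, a phosphoprotein ligand of integrins and CD44 that is made by bone cells, macrophages and injured mesenchyme. Its level was 109, 109 and 299 CPM in the fetal, 96.6, 98.4 and 98.1 CPM in the neonatal and 2968, 3052 and 3202 CPM in the adult libraries. The adult libraries lay far above the others and close together, while fetal replicate 3 was well above the other fetal ones. Adult cultures exceeded neonatal cultures 31.5-fold (log2 4.98, SE 0.41, edgeR adjusted p = 1.15e-05) and fetal cultures 17.8-fold (log2 4.16, SE 0.394, edgeR adjusted p = 1.74e-05). The latter was 4.82 on the log2 scale without fetal replicate 3. Neonatal and fetal cultures did not differ by the test (log2 -0.82, SE 0.351, edgeR adjusted p = 0.0993), although each fetal library was above each neonatal one. The difference was -0.156 without fetal replicate 3 and passed the threshold then (adjusted p 0.0357), as it did at -1.06 without fetal replicate 1 or 2 (0.0446 and 0.0462).

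Macrophage markers and Spp1 both rose into adult cultures, whereas from fetal to neonatal cultures the markers rose and Spp1 did not. All 12 markers of that list were called higher in adult than in neonatal and than in fetal cultures, with Lyz2 at 1730 to 2633 CPM and Csf1r at 377 to 619 CPM in adult libraries. In fetal replicate 3, whose Spp1 was the fetal high, the summed macrophage level was 70.8 CPM, against 15 and 15.5 in the other fetal libraries. From fetal to neonatal cultures 10 of the 12 markers were called higher (median log2 2.2 over the list), while every neonatal library had less Spp1 than every fetal one. The 6 bone markers summed to 13.6 to 27.1 CPM over the 9 libraries, nearly all of it Runx2 (12.2 to 26.1 CPM). The part of macrophage RNA in the Spp1 result was not tested.

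**Figure D2:**
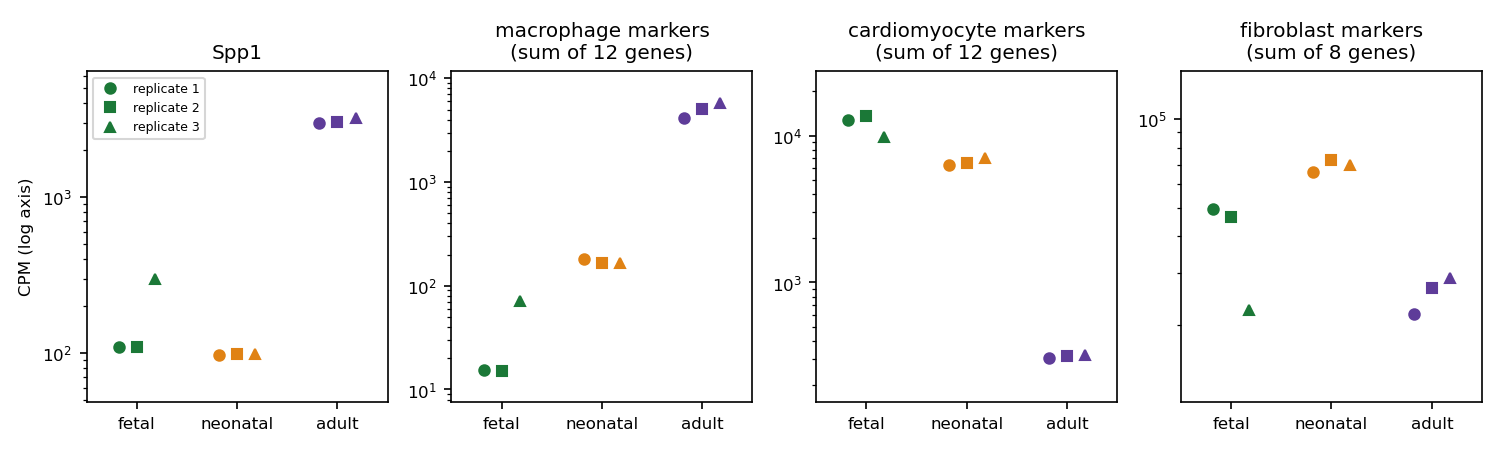
Spp1 and the summed levels of macrophage, cardiomyocyte and fibroblast marker lists in each of the 9 libraries, in CPM on log axes (circles, squares and triangles are replicates 1, 2 and 3). The adult libraries hold both the highest Spp1 (2968 to 3202 CPM) and the highest macrophage sum (4180 to 5843 CPM); fetal replicate 3 is the fetal high of both and the fetal low of the fibroblast sum.

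The thrombospondins took separate courses. Thbs1 (chromosome 3, 109862120 to 109873466, rn6), an activator of latent TGF-beta and a ligand of CD47, was at 6816, 7212 and 5271 CPM in the fetal, 8101, 8502 and 7831 CPM in the neonatal and 5498, 4523 and 4391 CPM in the adult libraries. The neonatal libraries were above all others, and the fetal and adult libraries overlapped because fetal replicate 3 lay below adult replicate 1. Thbs1 fell from neonatal to adult cultures (log2 -0.76, SE 0.14, edgeR adjusted p = 0.0011). It was also called lower in adult than in fetal cultures (log2 -0.42, SE 0.139, edgeR adjusted p = 0.0216), which did not hold when fetal replicate 1 (adjusted p 0.0605), fetal replicate 2 (0.0771), adult replicate 2 (0.0762) or adult replicate 3 (0.0766) was left out, or with only these ages in the fit (0.058). Its 1.27-fold higher neonatal than fetal level did not pass (log2 0.34, SE 0.139, edgeR adjusted p = 0.0833), though it did with DESeq2 (0.0421).

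Thbs2 (chromosome 1, 56653929 to 56683571, rn6), which limits protease activity in the matrix as well as vessel growth, overlapped between fetal and neonatal cultures and was high in adult ones. The fetal libraries were at 208, 212 and 124 CPM, the neonatal at 194, 197 and 178 CPM, and the adult at 2716, 1732 and 1411 CPM. Fetal and neonatal libraries overlapped, and all adult libraries were far above them, with replicate 1 highest. Thbs2 rose 10.3-fold from neonatal to adult (log2 3.36, SE 0.286, edgeR adjusted p = 1.25e-05) and 10.8-fold from fetal to adult cultures (log2 3.43, SE 0.286, edgeR adjusted p = 7.1e-06). Without adult replicate 1 these were 3.05 and 3.12 on the log2 scale. The neonatal difference from fetal cultures was 0.06, with a 95% interval of -0.53 to 0.66 (edgeR adjusted p = 0.869), and its sign turned without fetal replicate 3 (-0.148) and with library size as the scaling (-0.0876). The ratio of Thbs1 to Thbs2 per length was 52 to 67.7 in fetal, 66.4 to 69.6 in neonatal and 3.21 to 4.94 in adult libraries.

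Thbs3 (chromosome 2, 188528979 to 188540738, rn6), a pentameric thrombospondin of developing bone and heart, had the narrowest range of the 10 members, 1.86-fold over the 9 libraries. It was at 59, 57.4 and 35.6 CPM in the fetal, 66.2, 65.7 and 66.2 CPM in the neonatal and 40.1, 49.3 and 47.5 CPM in the adult libraries. The neonatal libraries were again above all others. The fall from neonatal to adult cultures (log2 -0.53, SE 0.172, edgeR adjusted p = 0.0225) missed the threshold when any neonatal library was left out (adjusted p 0.0522 to 0.0534) or adult replicate 1 was (0.0742). No change was called from fetal to neonatal (log2 0.38, edgeR adjusted p = 0.108) or from fetal to adult cultures (log2 -0.15, 95% interval -0.54 to 0.24, edgeR adjusted p = 0.453). Without fetal replicate 3 the latter was -0.353 and passed (adjusted p 0.00233).

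Thbs4 and Comp were the rare members. Thbs4 (chromosome 2, 22343727 to 22385855, rn6), a stress-induced thrombospondin of heart, muscle and tendon, had 40, 41 and 161 counts in the fetal, 16, 20 and 16 in the neonatal and 8, 8 and 5 in the adult libraries. In CPM the fetal libraries were at 2.16, 1.81 and 8.55, the neonatal at 0.88 to 1.04 and the adult at 0.374 to 0.612, with no overlap between any ages. Thbs4 was lower in neonatal (log2 -2.13, SE 0.586, edgeR adjusted p = 0.0206) and in adult (log2 -2.98, SE 0.656, edgeR adjusted p = 0.00266) than in fetal cultures. These differences shrank to -1.06 and -1.91 without fetal replicate 3, and the first missed the threshold when any neonatal library was left out (adjusted p 0.0631 to 0.0724). Adult and neonatal cultures differed by -0.85 (95% interval -2.47 to 0.77, edgeR adjusted p = 0.323), which passed without fetal replicate 3 (-0.853, adjusted p 0.0417). The summed level of 5 tendon markers was lowest in fetal replicate 3 among fetal libraries (118 CPM, against 198 and 206). Within that list the members differed: Scx, Tnmd and Fmod (37.5 CPM, against 18.7 and 21.9) were highest there, Egr1 was lowest (54.9 CPM, against 165 and 173) and Kera was at 0 in every library. Their part in the Thbs4 level of that library was not tested.

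Comp (chromosome 16, 20798437 to 20807070, rn6), a bridging protein of cartilage and tendon collagen, had 26, 37 and 23 counts in the fetal, 14, 21 and 9 in the neonatal and 82, 99 and 62 in the adult libraries. The corresponding CPM were 1.4, 1.63 and 1.22, then 0.77, 0.976 and 0.582, then 6.27, 7.15 and 4.64, so that the ages did not overlap. Comp rose 7.6-fold from neonatal to adult (log2 2.93, SE 0.284, edgeR adjusted p = 2.09e-05) and 4.22-fold from fetal to adult cultures (log2 2.08, SE 0.265, edgeR adjusted p = 8.33e-05). Its lower neonatal than fetal level passed narrowly (log2 -0.85, SE 0.294, edgeR adjusted p = 0.0483). That call was lost without any 1 of fetal replicates 1 and 2, the neonatal libraries, or adult replicates 1 and 2 (adjusted p 0.0601 to 0.158), without the filter (0.064) and with only these ages in the fit (0.0605). The summed level of 11 cartilage markers was 178 to 224 CPM in fetal, 277 to 296 in neonatal and 66.8 to 129 in adult libraries, where Sox9 alone gave 59.1 to 120 CPM. Acan was at 89 to 117 CPM in fetal, 94.6 to 97.3 in neonatal and 0.144 to 0.153 in adult libraries. In adult libraries Col2a1, Col9a1 and Hapln1 were at 0. Lect1 was at 0 in every library, and Matn1 in all but fetal replicate 2. Col11a2, at 4.9 to 5.34 CPM in adult libraries, and Snorc (RGD1311447), below 1 CPM, were at their highest of the 3 ages there. The part of cartilage-type RNA in the Comp result was not tested.

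Cilp (chromosome 8, 70760922 to 70775891, rn6), a secreted antagonist of TGF-beta and IGF1 signalling known from cartilage and cardiac fibroblasts, was the member called higher at each step. It was at 4.16, 2.29 and 6.37 CPM in the fetal, 14.3, 12.6 and 12.4 CPM in the neonatal and 190, 137 and 92.9 CPM in the adult libraries. No 2 ages overlapped, and the adult libraries spread widely with replicate 1 highest. The steps were 3.1-fold from fetal to neonatal (log2 1.63, SE 0.366, edgeR adjusted p = 0.00957) and 10.7-fold from neonatal to adult cultures (log2 3.41, SE 0.337, edgeR adjusted p = 3.36e-05). Over the whole span Cilp rose 33.1-fold (log2 5.05, SE 0.375, edgeR adjusted p = 3.85e-06), the largest of the 10 members. These 3 calls held under each of the 16 alternatives. The fetal level rests on 77, 52 and 120 counts, and the log2 value for the span ran from 4.72 to 5.46 with 1 library left out. Among the fibroblast markers in adult libraries, Pdgfra (669, 383 and 245 CPM), Dcn (470, 359 and 230 CPM) and Tcf21 (226, 113 and 108 CPM) were likewise highest in replicate 1, while Col1a1 (11886, 15685 and 17306 CPM) and Col3a1 (8153, 9827 and 10411 CPM) were lowest there. Their part in the Cilp spread was not tested.

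**Figure D3:**
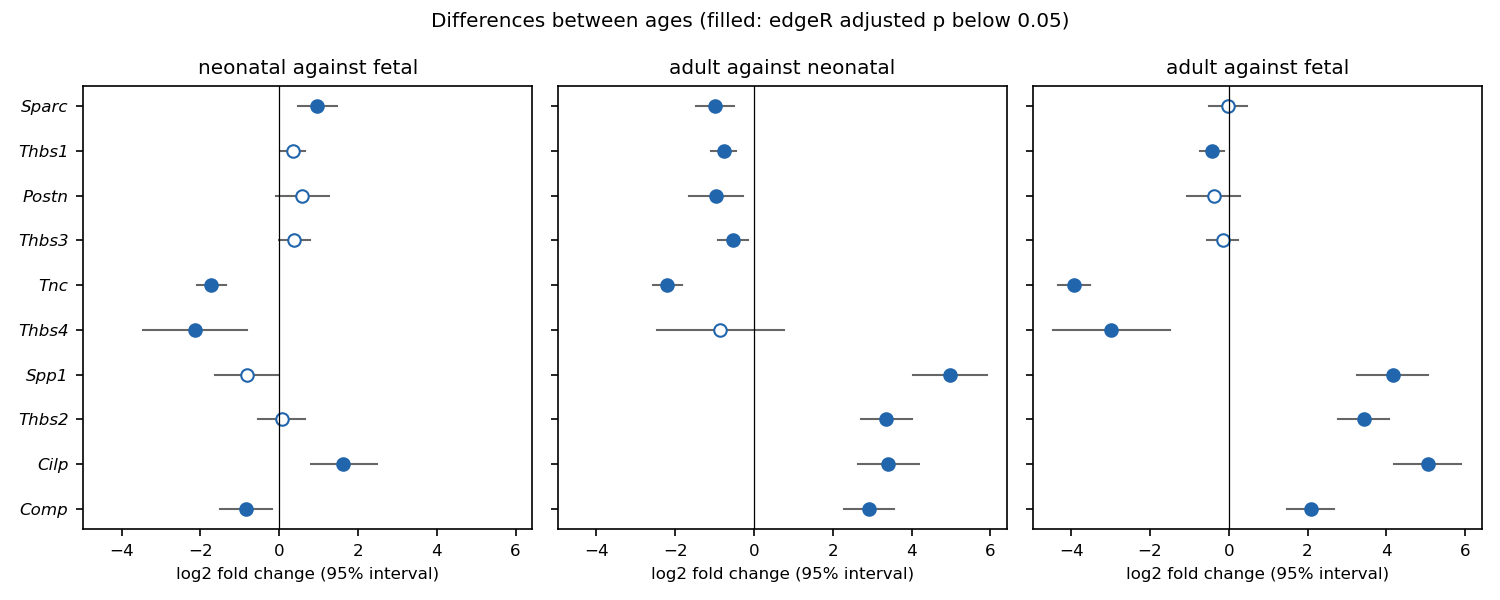
Log2 fold change of each member in the 3 comparisons of ages, with its 95% interval; filled points passed edgeR's adjusted p of 0.05 and open points did not. Tnc is below 0 in all 3 panels and Cilp above 0 in all 3, while Sparc, Thbs1, Postn and Thbs3 lie right of 0 in the first panel and left of it in the second.

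Levels per length show how the make-up of the class changed. Sparc, Thbs1, Tnc and Postn led in fetal cultures, at 3576, 1782, 430 and 307 CPM per kilobase, and the last pair overlapped. In neonatal cultures Sparc (6993 CPM per kilobase) and Thbs1 (2257) were followed by Postn (462) and Tnc (130), none overlapping the next. In adult cultures Spp1 (2067 CPM per kilobase) stood between Sparc (3521) and Thbs1 (1331), followed by Thbs2 (341) and Postn (236), which overlapped, and then Cilp (33.8) and Tnc (28.3), which also overlapped. The summed CPM per kilobase of the 10 genes was 6261 ± 1425 in fetal, 9966 ± 133 in neonatal and 7576 ± 278 in adult cultures. As a share of that sum, Spp1 made up 2.14% ± 1.92 of the fetal, 0.659% ± 0.00974 of the neonatal and 27.3% ± 0.0519 of the adult pool. The Tnc share was 6.85% ± 0.121, 1.31% ± 0.0108 and 0.374% ± 0.0238 in the same order. The Tnc share did not set fetal replicate 3 apart (6.77%, against 6.99% and 6.8%), while the Spp1 share did (4.36%, against 1.04% and 1.02%). Within the 5 thrombospondins, Thbs1 held 97.1% to 97.7% of the summed CPM per kilobase in the 6 fetal and neonatal libraries and 75.7% to 82.2% in the adult ones, and Thbs2 16.6% to 23.6% in the adult ones. These levels depend on the exon length the annotation gives each gene, which was 1487 bases for Spp1 and 6155 for Tnc. For Thbs1 it was 3609 bases in 42 exon intervals, and for Thbs2 it was 5728 bases in 22.

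**Figure D4:**
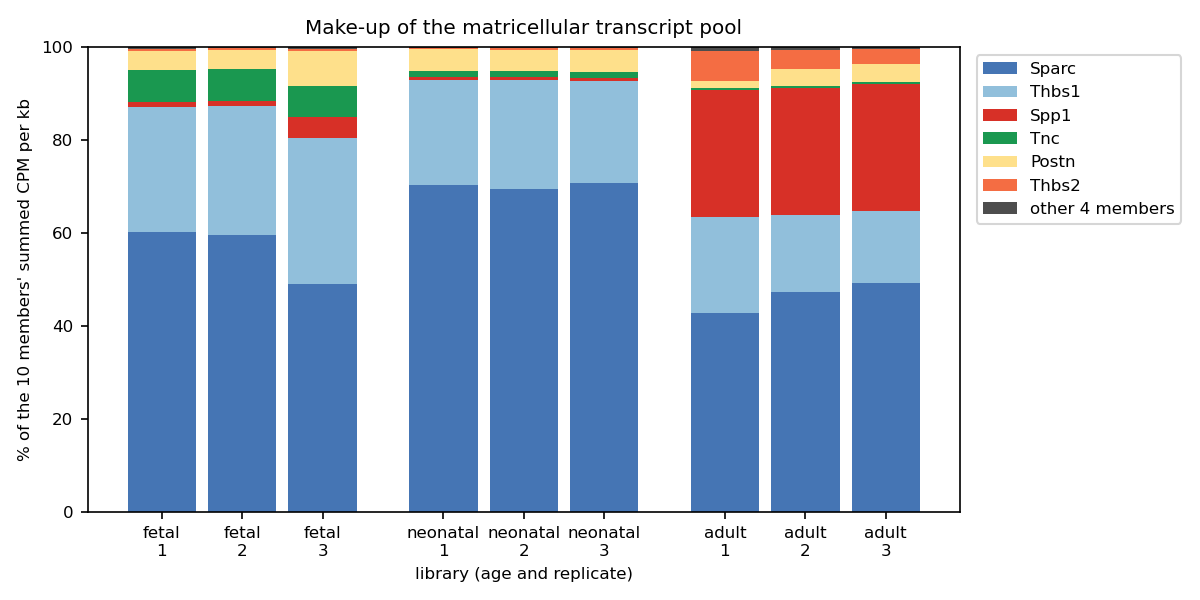
Make-up of the matricellular transcript pool in each of the 9 libraries: bars give each gene's percent of the 10 members' summed CPM per kilobase, and Thbs3, Thbs4, Comp and Cilp are drawn together. Sparc and Thbs1 fill most of every bar, the Tnc band shrinks from fetal to adult, and the Spp1 band is 27.3% in each adult library.

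The spread within an age differed between members. The coefficient of variation in neonatal libraries was 0.318% for Postn, 0.428% for Thbs3 and 0.501% for Sparc. It was at most 8.36% for the 9 members other than Comp (25.3%, on 9 to 21 counts). The Thbs3 value is below the counting error of its 1023 to 1415 counts, so values from 3 libraries are rough. In adult libraries the coefficient ran from 3.86% for Spp1 to 44.1% for Postn, with Thbs2 at 34.8% and Cilp at 34.6%. Adult replicate 1 had the highest adult Thbs1, Thbs2, Thbs4 and Cilp and the lowest adult Thbs3, Tnc, Postn, Sparc and Spp1. The same library had the highest sum of epicardial or mesothelial markers (495 CPM, against 303 and 210), most of it Aldh1a2 (437 CPM, against 254 and 169). Wt1 and Msln were also highest there, but Tbx18 was lowest (25 CPM, against 28.2 and 26.9). Upk1b and Krt19 were below 1 CPM in every adult library. Adult replicate 1 also had the lowest macrophage sum (4180 CPM, against 5102 and 5843). The part of these marker lists in its matricellular levels was not tested.

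Other matricellular genes and the receptors and partners of the class were read from lists of names. The table held 32 other matricellular genes, of which 23 were tested. Of these, 5 rose and 2 fell from fetal to neonatal, 9 rose and 6 fell from neonatal to adult, and 12 rose and 7 fell from fetal to adult cultures. Those called were thus 7, 15 and 19 of 23, beside 36.3%, 63.5% and 70.5% of all genes tested, so the shares for the 2 single steps were near or below the background. Their median log2 difference was 0.469, 0.366 and 0.834 in these comparisons, beside -0.0053, -0.00646 and -0.0127 for all genes tested. Ccn4, listed under its older symbol Wisp1, a WNT-induced growth regulator, also fell at each step, at 163 ± 8.98 CPM before birth, 34.7 ± 3.88 CPM at postnatal day 1 and 4.38 ± 0.654 CPM in adults (log2 -2.23 and -2.98 for the steps, edgeR adjusted p = 3.94e-06 and 1.36e-07; log2 -5.21 for the span, 3.46e-09). Ccn5 (Wisp2), a CCN protein without the C-terminal domain of its relatives, rose from 120 ± 71.1 to 745 ± 2.4 CPM between fetal and neonatal cultures (log2 2.63, edgeR adjusted p = 0.0028) and was at 1372 ± 151 CPM in adult ones. Igfbp7, an IGF-binding protein of vessels and stroma, also rose from fetal to neonatal cultures (log2 1.51, edgeR adjusted p = 0.00205). Lgals1, a galectin, fell in that step (log2 -0.66, edgeR adjusted p = 0.023), which missed the threshold when any neonatal library was left out (adjusted p 0.0628 to 0.0786). Galectin 3 (Lgals3), abundant in macrophages, rose from 110 ± 5.52 CPM in neonatal to 2354 ± 251 in adult cultures (log2 4.42, edgeR adjusted p = 6.94e-05). It was 5.07 above the fetal level on the log2 scale (edgeR adjusted p = 2.49e-05), or 5.94 without fetal replicate 3.

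Fibulin 1 (Fbln1), a basement membrane and elastic fibre glycoprotein, was at 809, 340 and 220 CPM in the adult libraries against 45.4 ± 3.09 in neonatal ones. Its rise was 3.33 on the log2 scale (edgeR adjusted p = 0.000499), or 2.62 without adult replicate 1, and 3.89 over fetal cultures (edgeR adjusted p = 0.000176), or 3.19 without that library. Tgfbi, a fasciclin-domain relative of periostin, was called lower in adult than in fetal cultures (log2 -3.43, edgeR adjusted p = 0.0036). Its fetal libraries were at 30.7, 31.6 and 222 CPM, and without fetal replicate 3 the difference was -1.83.

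Of 28 receptors and partners, all tested, 9 rose and 2 fell from fetal to neonatal, 7 rose and 13 fell from neonatal to adult, and 9 rose and 11 fell from fetal to adult cultures. Those called were 11, 20 and 20 of 28, close to the 36.3%, 63.5% and 70.5% of all genes tested. Their median log2 differences were 0.233, -0.487 and -0.319. Integrin beta 3 (Itgb3), a subunit that pairs with the alpha v chain to bind osteopontin and periostin, rose from 37.4 ± 5.91 to 125 ± 4.1 CPM between fetal and neonatal cultures (log2 1.74, edgeR adjusted p = 2.25e-05) and fell to 22.6 ± 2.67 CPM in adult ones (log2 -2.47, edgeR adjusted p = 4.15e-07). Integrin alpha 4 (Itga4), another osteopontin receptor chain, fell from neonatal to adult cultures (log2 -2.23, edgeR adjusted p = 0.000298). Integrin beta 6 (Itgb6), an epithelial subunit that binds tenascin C, fell at both steps, with fetal cultures at 12.1 ± 5.13 CPM, neonatal ones at 2.41 ± 0.391 CPM and adult ones at 0.347 ± 0.109 CPM (log2 -2.32 and -2.77, edgeR adjusted p = 0.000663 and 0.00044). Over the whole span the Itgb6 difference was -5.09 on the log2 scale (edgeR adjusted p = 3.93e-06). Mmp9, a gelatinase that cleaves osteopontin, was at 142, 66.3 and 22.3 CPM in adult libraries, against 7, 11 and 9 counts in the neonatal and 0, 0 and 11 counts in the fetal ones. It was called higher in adult than in neonatal (log2 7.27, edgeR adjusted p = 0.000122) and in fetal cultures (log2 8.65, edgeR adjusted p = 6.14e-05), or 6.48 and 7.86 without adult replicate 1. The difference from fetal cultures was 7.99 without fetal replicate 2, and without fetal replicate 3 the fetal libraries held no Mmp9 count.

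The receptors Cd47, bound by thrombospondin 1, and Cd44, bound by osteopontin, are given for their role and were chosen after their values were seen. Cd47 rose between fetal (50.6 ± 8.01 CPM) and neonatal cultures (75.1 ± 2.37 CPM, log2 0.57, edgeR adjusted p = 0.00372) and again to adult ones (106 ± 7.14 CPM, log2 0.50, edgeR adjusted p = 0.00274). Cd44 was at 175 ± 69.8 CPM in fetal and 126 ± 5.12 in neonatal cultures, which did not differ by the test (edgeR adjusted p = 0.124), and at 403 ± 4.32 CPM in adult cultures (log2 1.68 over neonatal, edgeR adjusted p = 0.0002). Macrophages also express Cd44, Lgals3 and Mmp9, and the macrophage markers were highest in adult cultures too. Among the adult libraries Mmp9 (142, 66.3 and 22.3 CPM) and Lgals3 (2633, 2283 and 2146 CPM) were highest in replicate 1. Cd44 was nearly level (405, 407 and 399 CPM). The macrophage sum was lowest in replicate 1 (4180 CPM, against 5102 and 5843). Of its markers, Cd163 (6.27 CPM, against 2.82 and 2.25) and Itgam (194 CPM, against 180 and 187) were highest there, and the others were lowest. The part of macrophage RNA in the rises of Cd44, Lgals3 and Mmp9 was not tested.

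For each member the 2 tested genes with the most similar profile were found by Euclidean distance of centred log2 CPM over the 9 libraries. The libraries share their age groups, so high correlations are common across genes and carry no test. Nearest to Spp1 were Pla2g7 (distance 0.89, r = 0.993) and Zmynd15 (0.93, r = 0.996), and nearest to Cilp were Slamf8 (0.785, r = 0.994) and Lonrf3 (1.04, r = 0.988). Thbs2 lay closest to Sod2 (0.522, r = 0.994) and RT1-CE10 (0.68, r = 0.99), a class I histocompatibility gene. Comp was nearest to Gmfg (0.851, r = 0.971) and Fth1 (0.88, r = 0.97). The falling genes Lppr4 (0.593, r = 0.992) and Ntrk2 (0.609, r = 0.992) were the neighbours of Tnc, and Galnt3 (0.836, r = 0.979) and Lrrn3 (0.88, r = 0.97) those of Thbs4. Sparc was nearest to Myo1d (0.238, r = 0.99) and Fjx1 (0.263, r = 0.987), Postn to Kank4 (0.633, r = 0.951) and Tm4sf4 (0.653, r = 0.968), Thbs1 to Rabgap1 (0.199, r = 0.984) and Kidins220 (0.207, r = 0.982), and Thbs3 to Oxsm (0.245, r = 0.966) and Tmem50b (0.249, r = 0.968). No member was among the nearest genes of another member.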

How the data were processed

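Raw read counts per gene were used as deposited by the authors for the 9 libraries; per the file headers they came from featureCounts 1.6.3 with an rn6 annotation and no strand or multi-mapping option, so reads in exons shared by overlapping genes were not assigned. No exon of a member overlapped another gene in that annotation. FastQC, Trimmomatic 0.39, STAR 2.5.2b, Subread 1.6.3 and DESeq2 are named in the submitters' processing notes without roles. Exon lengths came from the same table. A second deposited table of normalized values was not used here. Samples were grouped by their titles. Genes were filtered with filterByExpr, scaled by TMM and tested with edgeR 4.0.16 (R 4.3.3; glmQLFit, robust, and glmQLFTest) over all 9 libraries with age as the only term, and p-values were adjusted by Benjamini-Hochberg over 11337 genes per comparison. The log2 CPM for profile distances used a prior count of 2. Standard errors were derived from the F statistic, and 95% intervals from its degrees of freedom. The script was tested on simulated data. Older symbols were matched through RefSeq names for GRCr8.

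The members and lists were chosen with earlier results of these data known. Named list genes are, per comparison, the 3 largest called changes in each direction with at least 10 CPM in the higher age. No pair of libraries of 1 age agreed within counting error. Alternatives were DESeq2 1.42.0, RLE size factors, library size alone, no filter, no robust estimation, only the 2 ages compared, a replicate block, each library left out, and a log2 fold change of at least 1.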

Additional observations from a re-analysis of the deposited data

How the results depend on the processing

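Of 480 member fold changes recomputed under the alternatives, 442 kept their direction and side of the threshold, 23 lost their call, 9 gained one and 6 changed sign. The sign changes concerned differences near 0: Thbs2 between neonatal and fetal cultures (-0.0876 with library size alone, -0.148 without fetal replicate 3, up to 0.194 with another library left out) and Sparc between adult and fetal cultures (0.00965 with the replicate block, 0.0971, 0.12 and 0.059 without fetal replicate 1, fetal replicate 2 and adult replicate 1, and down to -0.27 without fetal replicate 3). A minimum size of 1 on the log2 scale left 1272, 2838 and 3675 genes of 4114, 7197 and 7987 in the neonatal against fetal, adult against neonatal and adult against fetal comparisons, 3 of 5 and 5 of 9 members in the first and second, and 9 of 18 other matricellular and receptor genes in the first (12 to 27 with 1 library left out). Leaving out 1 library gave 2476 to 4679 genes and 3 to 6 members between neonatal and fetal cultures; the lowest counts came without a neonatal library (2607, 2476 and 2575 genes without replicates 1, 2 and 3). Library size alone moved the median of all genes by -0.17 (neonatal against fetal) and -0.109 (adult against fetal), with 29% of called genes higher in neonatal cultures against 50.4% with TMM. Replicate numbers did not pair the libraries: correlations of same-numbered deviations were -0.0649 to 0.0521. With the replicate block 3713, 6985 and 7801 genes and 5, 9 and 7 members were called. Thbs4 and Comp rest on 5 to 161 counts per library, and fetal Cilp on 52 to 120, which limits their precision.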
